A study of Mus musculus with 24 samples.

Results

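The effect of an obese mother on male blastocysts was examined by comparing 4 arrays of XY embryos from obese mothers and lean fathers with 4 arrays of XY embryos from lean parents. These are 8 of the 24 arrays of the study, chosen by the labelled parental group and embryo sex and not by any measured value. The comparison covers 19938 genes that a probe set with 1 gene symbol represents, of which 13311 were bright enough to be tested. The mice were of the outbred NMRI strain. From the age of 3 weeks and for 9 weeks, the later obese mothers ate a high-fat, high-calorie diet, while their mates and both parents of the control embryos ate the matching control diet. They were mated at 12 weeks, all on the control diet during mating, and embryos were taken on day 3.5 after mating. Each array was hybridised with amplified cDNA from the lysates of 3 embryos of 1 sex and 1 mother. The labels call the dams obese or lean by diet, and body weights were not analysed here. There were 7 mice on the high-fat and 14 on the control diet, and the labels do not tie a pool to its dam. Pools of 1 group may therefore share a mother, and the p-values measure the spread between pools.

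A blastocyst on this day has an outer trophectoderm, which pumps fluid into the cavity and later builds the placenta, and an inner cell mass. The inner cell mass sorts into epiblast, the source of the body, and primitive endoderm, the source of the yolk sac lining. The oocyte supplies the embryo with its mitochondria and with a store of RNA and protein, so a mother's metabolic state can reach the embryo through the egg as well as through the fluids of the oviduct and uterus. Male embryos carry only the maternal X chromosome and have no inactive X. In female embryos the non-coding RNA of Xist coats the X chromosome that is to be silenced. In lysates of whole embryos, fewer cells of a type and less RNA per cell cannot be told apart.

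Defining markers of the blastocyst's cell types were read on the 8 arrays. All values are log2 levels of 1 probe set per gene, where a difference of 1 is a doubling of the signal. Across the 8 arrays, the trophectoderm keratin Krt8 lay between 6.40 and 8.04 and the trophectoderm master regulator Cdx2 between 3.21 and 4.95. Nanog, which keeps the epiblast pluripotent, lay between 4.08 and 4.90, and the primitive endoderm factor Gata6 between 3.45 and 4.46. The means of the 2 groups for these 4 genes differed by at most 0.17. Some other blastocyst markers of the fixed list differed more, most of all Pou5f1 (1.53), Krt18 (0.34) and Sox2 (-0.23). The inner cell mass genes Sox2 and Esrrb had medians of 3.04 and 2.85 and the primitive endoderm receptor gene Pdgfra 2.79, against 2.56 for the median of all values in the table. The granulosa marker Amh and the sperm marker Prm1 had medians of 4.255 and 4.077. A level above the median of all values therefore does not by itself set blastocyst cells apart.

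The labelled sex was visible in a pair of genes. Xist had a median of 1.91 and a maximum of 2.26 on the 8 XY arrays, and a median of 3.10 on the 8 XX arrays of the same 2 kinds of parents, of which 6 lay above every XY array. Eif2s3y, a Y-linked translation initiation factor gene, lay between 1.41 and 3.12 on the XY arrays, of which 7 exceeded every XX array. It was too dim to be tested, as were 7 of the 8 genes of the Y-linked list in the table. Uty and Kdm5d, other Y-linked genes, did not exceed 2.39 and 1.98 on any of the 8 arrays. Sry, the testis-determining gene, was tested and differed by 0.14 ± 0.18 (SE) between the groups (unadjusted p = 0.426 in limma). Its mean was 3.17 and 2.76 in the XX groups of obese mothers and lean parents, as high as in males, so its probe set does not separate the sexes. Xist differed by -0.10 ± 0.28 (SE), with a mean of 1.97 ± 0.18 (SD, n = 4) in the obese-mother group and 2.07 ± 0.20 (SD, n = 4) in the lean group.

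The arrays differed in the spread of their values, and wide and narrow arrays occurred in both groups. The standard deviation of all values on an array, the array SD, was 1.325, 1.536, 1.363 and 1.505 on the arrays 5 to 8 of the obese-mother group. It was 1.292, 1.421, 1.532 and 1.265 on the arrays 1 to 4 of the lean group. The groups overlapped, with means of 1.432 ± 0.104 and 1.378 ± 0.124 (SD, n = 4 each). The difference of 0.0544 gave p = 0.486 in a two-sided exact permutation test, where 0.0286 is the smallest p that 4 against 4 allow. Over the tested genes, the correlation between 2 arrays had a median of 0.867 within the obese-mother group, 0.813 within the lean group and 0.878 between the groups. For 4 of the 8 arrays the best match was an array of its own group.

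No gene was called at an adjusted p below 0.05. In the limma fit, which took the 6 group means and 1 spread per gene from all 24 arrays, 0 of 13311 genes (0%) passed after Benjamini-Hochberg adjustment, and the smallest adjusted p was 0.9998. At an unadjusted p below 0.05 there were 226 genes (1.70%), of which 80 (0.601%) were higher and 146 (1.10%) lower with an obese mother. The differences were narrowly spread around 0. Their median was -0.01, the interquartile range ran from -0.12 to 0.10, and 5% of genes lay below -0.28 and 5% above 0.35. The full range ran from -1.66 to 1.70, and 46.1% of genes were above 0.

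The precision of the comparison depended on the gene's brightness. The median 95% confidence interval reached 0.38 to either side of the estimate. For 11870 genes (89.2%) the whole interval lay between -1 and 1. The genes were divided by their mean level over the 24 arrays into 10 brightness bins of equal size. In the top bin the median interval reached 0.63 to either side, and 54.5% of intervals lay between -1 and 1. The same bin had a median difference of 0.07, while the medians of the other 9 bins lay between -0.03 and -0.01. In the XX comparison the top bin had a median of -0.06.

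**Figure D1:**
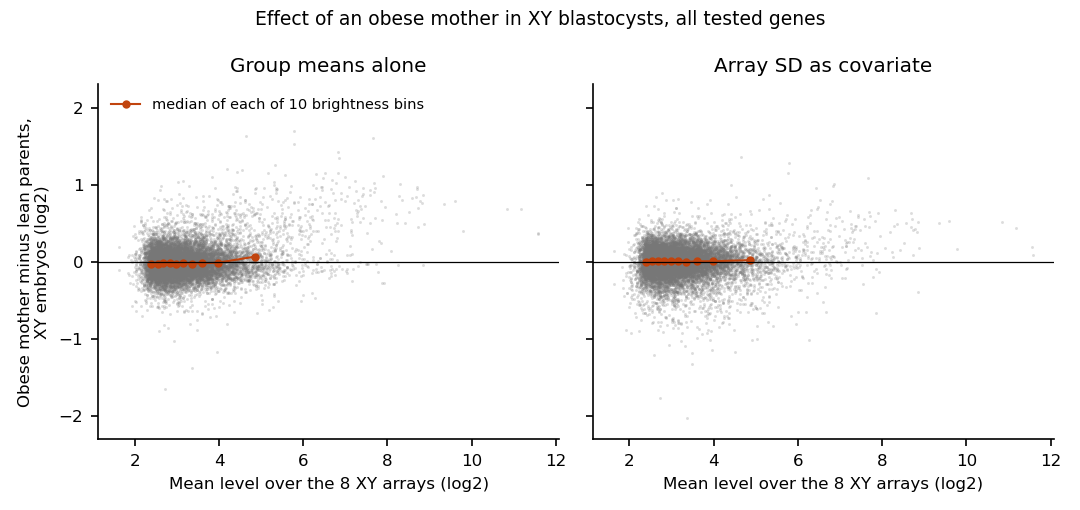
Each point is 1 of the 13311 tested genes, with its mean level over the 8 XY arrays (x axis, log2) and the difference between obese-mother and lean-parent embryos (y axis, log2), from group means alone (left) and with the array SD as a covariate (right). The red points are the medians of 10 brightness bins, which turn up to 0.07 for the top bin on the left and to 0.02 on the right.

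With the array SD as a covariate the fit asks how the groups differ at equal spread of the arrays. The array SD is computed from the same values, bright genes included, so it is not an independent measure. Its slope was shared by the 6 groups. Again 0 of 13311 genes (0%) passed in limma, with a smallest adjusted p of 0.693. At an unadjusted p below 0.05 there were 655 genes (4.92%), almost evenly split into 329 higher (2.47%) and 326 lower (2.45%). Of the 226 genes of the fit without the covariate, 214 (94.7%) were among them, all in the same direction, and they made up 32.7% of the 655. The median interval shrank to 0.31 to either side, and in the top brightness bin from 0.63 to 0.43. The effect sizes of the 2 fits had a correlation of 0.830 across genes, which share all arrays, and 16.7% of genes changed sign.

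A second view needs no model of the spread. In 73 genes (0.548%) all 4 obese-mother arrays lay above all 4 lean arrays, and in 114 (0.856%) all 4 lay below. These 187 genes had modest differences, with a median size of 0.33 and a maximum of 0.95. They were dim, with a median level of 2.81 against 3.03 for all tested genes. Of them, 68 also had an unadjusted p below 0.05, and all 187 kept their sign with the array SD as a covariate. The 187 were picked because these same arrays separate, which makes a kept sign likely. The kept sign is therefore not independent support. The tested genes in general were about as variable between pools in either group, with a median SD of 0.22 in the obese-mother group and 0.24 in the lean group.

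Genes whose symbols carry no information about the gene were left out of the naming by rank, 3 higher and 2 lower ones by p, and a higher one of them had the smallest p of all (0.000656). Of the named genes higher with an obese mother, Zdhhc22, a palmitoyltransferase gene, had the smallest p. Its level was 3.83, 3.50, 3.21 and 3.17 in the obese-mother pools and 2.90, 2.67, 2.79 and 2.69 in the lean pools. All 4 obese-mother arrays lay above the lean ones, and the difference was 0.67 ± 0.17 (SE; unadjusted p = 0.000749) without and 0.70 with the covariate. Ciapin1, which takes part in the assembly of cytosolic iron-sulfur proteins, was at 2.95, 3.35, 2.97 and 3.27 against 2.65, 2.34, 2.48 and 2.58. Its groups did not overlap either, and they differed by 0.62 ± 0.17 (SE). Rlf, a zinc finger gene known from mice for its part in epigenetic silencing, was at 2.85, 2.03, 3.12 and 2.93 against 2.05, 2.03, 2.08 and 2.004. Here 1 obese-mother array lay among the lean ones while the other 3 stood apart, for a difference of 0.69 ± 0.20 (SE).

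The other genes of this direction were Stxbp6 (0.58), which binds SNARE proteins of vesicle fusion, Vsig8 (0.39), Iftap (0.82), Syde1 (0.36), Myl6b (0.40), Reep3 (0.46), which keeps the endoplasmic reticulum off mitotic chromosomes, Scgb1b27 (0.43), Cfl2 (0.60), which severs actin filaments, and Tmem121 (0.36). Of these 9, the groups did not overlap in Stxbp6, Vsig8, Iftap, Reep3 and Cfl2. Cfl2 was at 4.18, 4.41, 4.29 and 4.32 against 3.68, 3.95, 3.45 and 3.72. With any 1 of the 8 arrays left out, the differences of the 12 genes of this direction stayed above 0, between 0.22 for Myl6b and 0.93 for Rlf and Iftap. The genes were picked for a small p in these same arrays, which makes a kept sign likely. The adjusted p of each was above 0.99 in limma without the covariate.

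Among the genes lower with an obese mother, Atxn7, a subunit of the SAGA histone acetyltransferase complex, came first. It was at 2.62, 2.40, 2.58 and 2.58 in the obese-mother pools and at 2.97, 2.93, 3.03 and 3.15 in the lean pools. The groups did not overlap and differed by -0.48 ± 0.12 (SE; unadjusted p = 0.000801). Gstk1, a glutathione transferase of mitochondria and peroxisomes, was at 1.99, 1.93, 2.002 and 2.17 against 2.52, 2.46, 2.45 and 2.72, a difference of -0.51 ± 0.15 (SE). Tlr2, a receptor for bacterial lipoproteins, was at 2.66, 2.78, 2.73 and 2.65 against 2.99, 3.28, 3.003 and 3.07, a difference of -0.38 ± 0.11 (SE). All 3 genes lay within 1 unit of the median of all values on each of the 8 arrays, where the signal is low.

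The lean arrays in these comparisons are also the controls of the male embryos of obese fathers, so the levels are set side by side without a test. Gstk1 had a mean of 1.89 ± 0.14 (SD, n = 4) in XY embryos of obese fathers and 2.02 ± 0.10 (SD, n = 4) in those of obese mothers, against 2.54 ± 0.13 (SD, n = 4) for the shared lean arrays. In XX embryos it was 2.39 ± 0.30 (SD, n = 4) with obese mothers and 2.20 ± 0.30 (SD, n = 4) with lean parents. Its lean male arrays were the high group here. Tlr2 had the same order in males, with 2.47 ± 0.06, 2.70 ± 0.06 and 3.09 ± 0.13 (SD, n = 4 each), while its XX groups were at 2.73 ± 0.16 and 2.77 ± 0.12 (SD, n = 4 each).

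The remaining 9 of the 12 lower genes were C1d (-0.64), a cofactor of the RNA exosome, Vps26b (-0.57), a retromer subunit that sorts endosomal cargo, Zfp850 (-0.44), Tmed3 (-0.48), a cargo receptor of the early secretory pathway, Slc15a5 (-0.33), Slurp1 (-0.52), Osbpl1a (-0.41), a sterol-binding protein of endosomes, Pdlim1 (-0.71), an adaptor on actin fibres, and Notch2 (-0.43), a receptor for Delta and Jagged ligands. The groups did not overlap in Zfp850, Tmed3, Slc15a5, Osbpl1a and Notch2. Notch2 was at 2.29, 2.31, 2.37 and 2.57 against 2.94, 2.71, 2.81 and 2.80. With any 1 of the 8 arrays left out, the 12 differences stayed below 0, the smallest being -0.29 for Slc15a5. These genes too were picked by p in these same arrays.

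**Figure D2:**
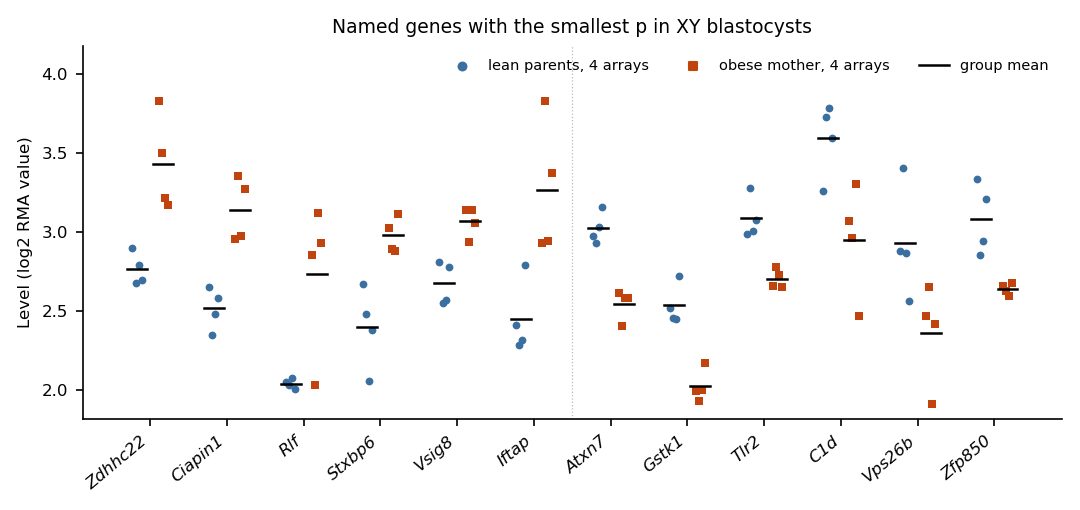
Log2 level (y axis) of the 6 named genes with the smallest p among those higher (left) and those lower (right) with an obese mother, on the 4 lean-parent (blue circles) and 4 obese-mother arrays (red squares), with group means as black bars. The groups do not overlap in 9 of the 12 genes, which were picked by p from these same arrays. Rlf shows 1 obese-mother array among the lean ones.

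The genes with the widest differences of means were others, and in several of those named a single array set the value. A difference beyond 1 in either direction was seen in 32 genes (0.240%), 28 of them above 1, and 26 of the 32 belonged to the top brightness bin. Their groups overlapped in all 32. Of these genes 3 had an unadjusted p below 0.05 without and 18 with the array SD as a covariate, and 9 remained beyond 1 with it. Eif5a, a translation elongation and termination factor, had the highest difference. It was at 5.05, 6.12, 8.53 and 6.83 in the obese-mother pools and at 3.61, 5.996, 6.64 and 3.48 in the lean pools. The difference was 1.70 ± 0.85 (SE; unadjusted p = 0.0580), and 1.07 without obese-mother array 7.

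Pou5f1, which encodes the pluripotency factor OCT4 of the inner cell mass, was at 5.61, 6.44, 6.83 and 7.26 with an obese mother and at 5.28, 6.14, 5.95 and 2.65 with lean parents. Lean array 4 stood far below the other 7. The difference was 1.53 ± 0.73 (SE; unadjusted p = 0.0493, adjusted p = 0.9998 in limma) and 0.74 without that array. Nanog, another gene of the inner cell mass, stayed between 4.08 and 4.90 on the 8 arrays, with a difference of 0.12, and Sox2 differed by -0.23.

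The same array was lowest in Rnf7, a RING subunit of cullin ubiquitin ligases, at 2.95 against 5.63 to 9.86 on the other 7 arrays. Without it the difference of Rnf7 was 0.31 instead of 1.61. It was also lowest in Snrpe, a core spliceosome protein (1.43, and 0.37 without it), and in Txn1, the cytosolic thioredoxin (1.35, and 0.57 without it). Mospd1, a gene of the X chromosome, did not rest on 1 array in this way, at 4.10, 6.25, 4.64 and 6.87 against 3.47, 4.51, 4.31 and 3.05. It differed by 1.63 ± 0.70 (SE; unadjusted p = 0.0302) and by at least 1.16 with any array left out.

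On the other side, the lowest difference of all, -1.66 ± 0.97 (SE), belonged to 4932438A13Rik, whose symbol carries no information about the gene. Its mean was 1.89 ± 0.12 (SD, n = 4) with an obese mother and 3.55 ± 2.33 (SD, n = 4) with lean parents. In 5 of the 6 lowest genes with an informative symbol, the difference came closest to 0 without lean array 3. Snord33, a small nucleolar RNA that guides ribosomal RNA methylation, was at 6.95 on that array and between 3.06 and 3.91 on the other 7. Its difference of -1.17 ± 0.48 (SE; unadjusted p = 0.0247) became -0.37 without it. Snora52, a guide of pseudouridylation, was at 6.25 on lean array 4 and between 1.95 and 2.89 elsewhere, and its difference went from -1.03 to -0.10. Small nucleolar RNAs lie inside the introns of host genes, so their probes can also read unspliced host RNA.

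Otud6b, a deubiquitinase gene, was at 1.53, 3.59, 1.55 and 4.06 against 2.55, 4.76, 7.29 and 1.62. Low and high arrays occurred in both groups, and the 4 arrays with the widest spread were the 4 with the highest level. It differed by -1.37 ± 1.17 (SE), by -0.29 without lean array 3 and by -2.02 ± 0.58 (SE) with the array SD as a covariate. Mier3, Pdcl3 and Bex1 had differences of -0.90, -0.88 and -0.86, and of -0.32, -0.10 and -0.34 without lean array 3.

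**Figure D3:**
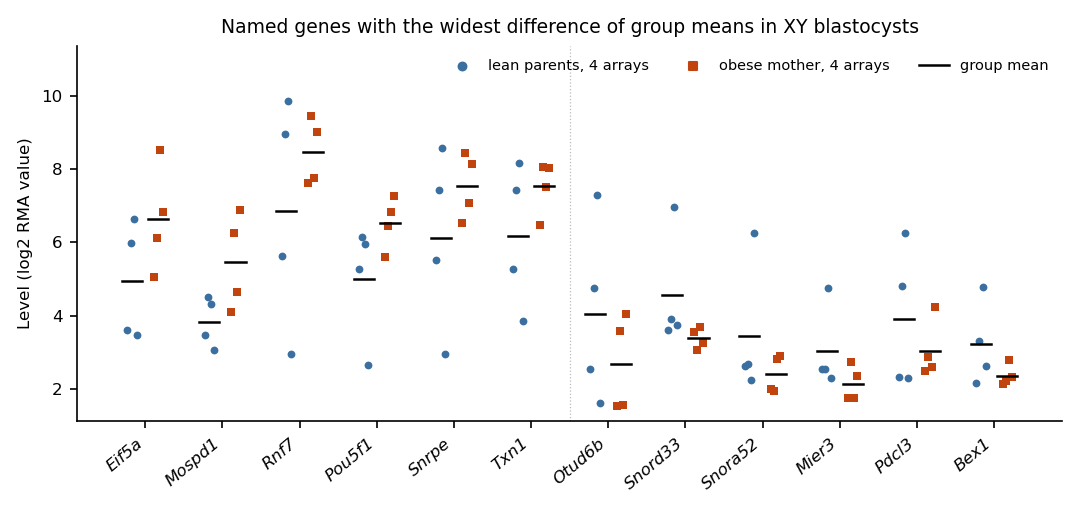
Log2 level (y axis) of the 6 genes with the largest positive (left) and the 6 with the largest negative difference of means (right) among genes with an informative symbol, on the 4 lean-parent (blue circles) and 4 obese-mother arrays (red squares), with group means as black bars. The groups overlap in all 12, and a single lean array stands apart in Rnf7 (2.95), Pou5f1 (2.65), Snord33 (6.95) and Snora52 (6.25).

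Taking the array SD into account brought other genes forward. Dazap2, a proline-rich adaptor, was at 4.75, 4.97, 4.86 and 4.98 with an obese mother and at 3.66, 4.33, 4.85 and 3.63 with lean parents. The 2 lean arrays with low levels were the 2 with the narrowest spread. Its difference was 0.77 ± 0.32 (SE) without and 0.58 ± 0.13 (SE; unadjusted p = 0.000285, adjusted p = 0.693 in limma) with the covariate. Timm23, the channel of the import machinery in the inner mitochondrial membrane, was at 5.79, 7.66, 6.08 and 7.56 against 5.04, 6.44, 6.73 and 5.05. It differed by 0.96 ± 0.57 (SE) and, with the covariate, by 0.61 ± 0.16 (SE). Slc38a8, an amino acid transporter gene, differed by 0.28 and 0.38 in the 2 fits. The other 3 higher genes of this fit were Zdhhc22, Ciapin1 and Rlf.

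On the lower side, the 6 named genes with the smallest p of this fit had wider differences with the covariate. They were picked by p in this same fit, which makes a wider difference likely, and lower genes in general need not follow. Sar1a, the GTPase that starts COPII coats at the endoplasmic reticulum, was at 2.28, 3.34, 2.52 and 3.51 against 3.54, 3.76, 4.48 and 3.08. It had the smallest p of the fit, with -0.80 ± 0.51 (SE) becoming -1.10 ± 0.22 (SE; unadjusted p = 6.51e-05, adjusted p = 0.693 in limma). Trim33, a ubiquitin ligase that acts on SMAD signalling, went from -0.65 to -0.75, and Tmem183a, whose groups did not overlap, from -0.63 to -0.76. Drg1, a translation GTPase, went from -0.76 to -1.18, Glod4 from -0.53 to -0.79 and Cct5, a subunit of the CCT chaperonin, from -0.20 to -0.59. Cct5 shows how far the values depend on the arrays chosen, since its difference without the covariate was 0.27 when lean array 3 was left out.

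The gene lists covered the embryo's lineages, its signalling, metabolism, stress responses, chromatin, translation and maternal RNA, and they held 887 tested genes. Of these, 0 were called, and 14 (1.58%) had an unadjusted p below 0.05, 7 in each direction, against 1.70% of all genes. With the array SD as a covariate 64 (7.22%) had one, against 4.92% of all genes and 6.91% of those in the top brightness bin. Of the 40 lists with at least 5 tested genes, 21 had a median difference above 0.

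The highest medians belonged to lists of bright genes, the translation machinery first. All 21 tested proteins of the small ribosomal subunit had a difference above 0, with a median of 0.77 and a range of 0.22 to 1.15. Against 1.70% of all genes, 0 of the 21 had an unadjusted p below 0.05. Their mean level was 7.07, 8.63, 7.46 and 8.36 on the obese-mother arrays and 6.31, 7.94, 8.39 and 5.84 on the lean arrays. The groups overlapped, and the 4 arrays with the widest spread, 2 of each group, were the 4 with the highest mean. The probe sets of ribosomal proteins can also read processed pseudogenes. With the covariate the median was 0.43, all 21 stayed above 0 and 5 had an unadjusted p below 0.05, where 51.9% of all genes were above 0 and 2.47% had such a p in that direction. Rps10 was among them, at 7.02, 8.09, 7.07 and 6.96 against 5.43, 6.85, 7.18 and 5.58, with 1.02 ± 0.50 (SE) without and 0.75 ± 0.27 (SE) with the covariate. Rps2 differed by 1.15 and 0.81.

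The large subunit followed with a median of 0.56, and 32 of 33 genes above 0. With the covariate the median was 0.29, with 28 above 0. Of the 33, 3 were higher at an unadjusted p below 0.05, against 2.47% of all genes in that direction. Rpl7a was among the 3 (0.82 ± 0.44 SE without and 0.57 ± 0.20 SE with the covariate). Translation factors had a median of 0.35 and 28 of 30 genes above 0, which became 0.08 and 21 of 30. Both ribosomal medians depended on the lean arrays. The small subunit's median was 0.35 without lean array 4, the array with the narrowest spread, and 1.25 without lean array 3, the lean array with the widest, and the large subunit's was 0.21 and 1.0. In XX embryos the medians had the opposite sign, at -0.69 for the small and -0.56 for the large subunit, and -0.21 and -0.13 with the covariate.

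**Figure D4:**
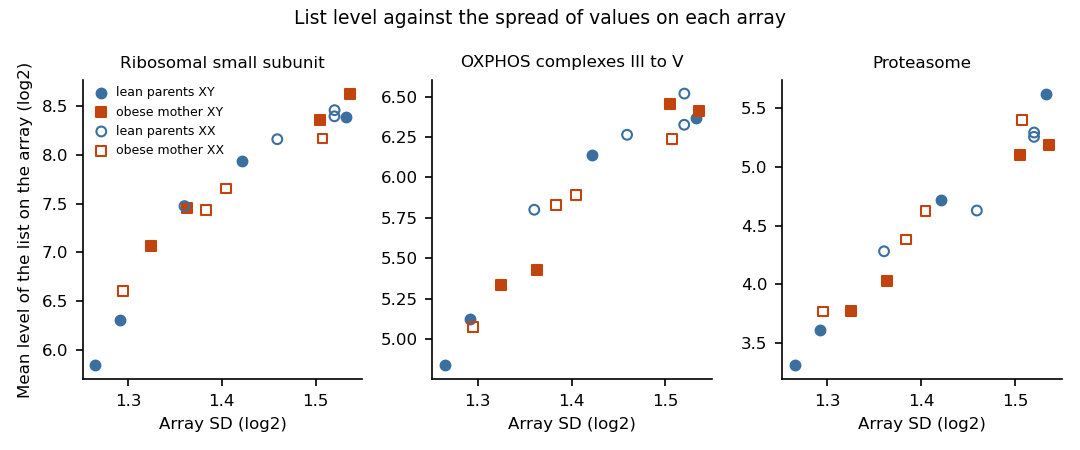
Mean log2 level of the tested genes of 3 lists (y axis) against the array SD (x axis, log2) for the 8 XY arrays (filled) and the 8 XX arrays (open) of lean parents (blue circles) and obese mothers (red squares). Narrow arrays have low and wide arrays high levels for either kind of parents and in both sexes, from 5.84 on the narrowest XY array to 8.63 on the widest for the small ribosomal subunit. The array SD is computed from the same values, these bright genes included, so the axes are not independent.

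The enzymes of respiration showed the same dependence on the arrays. Complexes III to V of the respiratory chain, which pass electrons to oxygen and make ATP, had a median of 0.38, and 26 of 35 genes were above 0. With the covariate the median was 0.08 with 20 of 35 above 0, and without lean array 4 it was 0.06. Uqcrfs1, the Rieske iron-sulfur subunit of complex III, was at 4.71, 5.36, 4.36 and 5.69 against 4.06, 4.86, 4.23 and 3.74. Its difference of 0.81 ± 0.37 (SE; unadjusted p = 0.0397) was 0.62 with the covariate. Atp5l, a subunit of ATP synthase, differed by 0.93 ± 0.49 (SE). Complex I, the NADH dehydrogenase, had a median of 0.15 that became 0.01, and Ndufa5 (0.78) and Ndufc1 (0.58) had its smallest p-values.

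In the TCA cycle the median was 0.13, and -0.02 with the covariate. Suclg1, the alpha subunit of succinyl-CoA ligase, was at 4.34, 5.24, 3.85 and 4.74 against 3.93, 4.03, 3.85 and 3.67, a difference of 0.67 ± 0.31 (SE; unadjusted p = 0.0406). Cs, citrate synthase, differed by 0.72 and mitochondrial Idh2 by -0.28, neither with an unadjusted p below 0.05. Protein turnover changed sign with the model. The proteasome's median was 0.13 with 26 of 33 genes above 0, and -0.22 with 8 of 33 above 0 once the array SD was a covariate. Psmb3, a subunit of the core particle, differed by 0.43 and 0.25. Heat shock proteins and chaperonins went from 0.15 to -0.03.

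**Figure D5:**
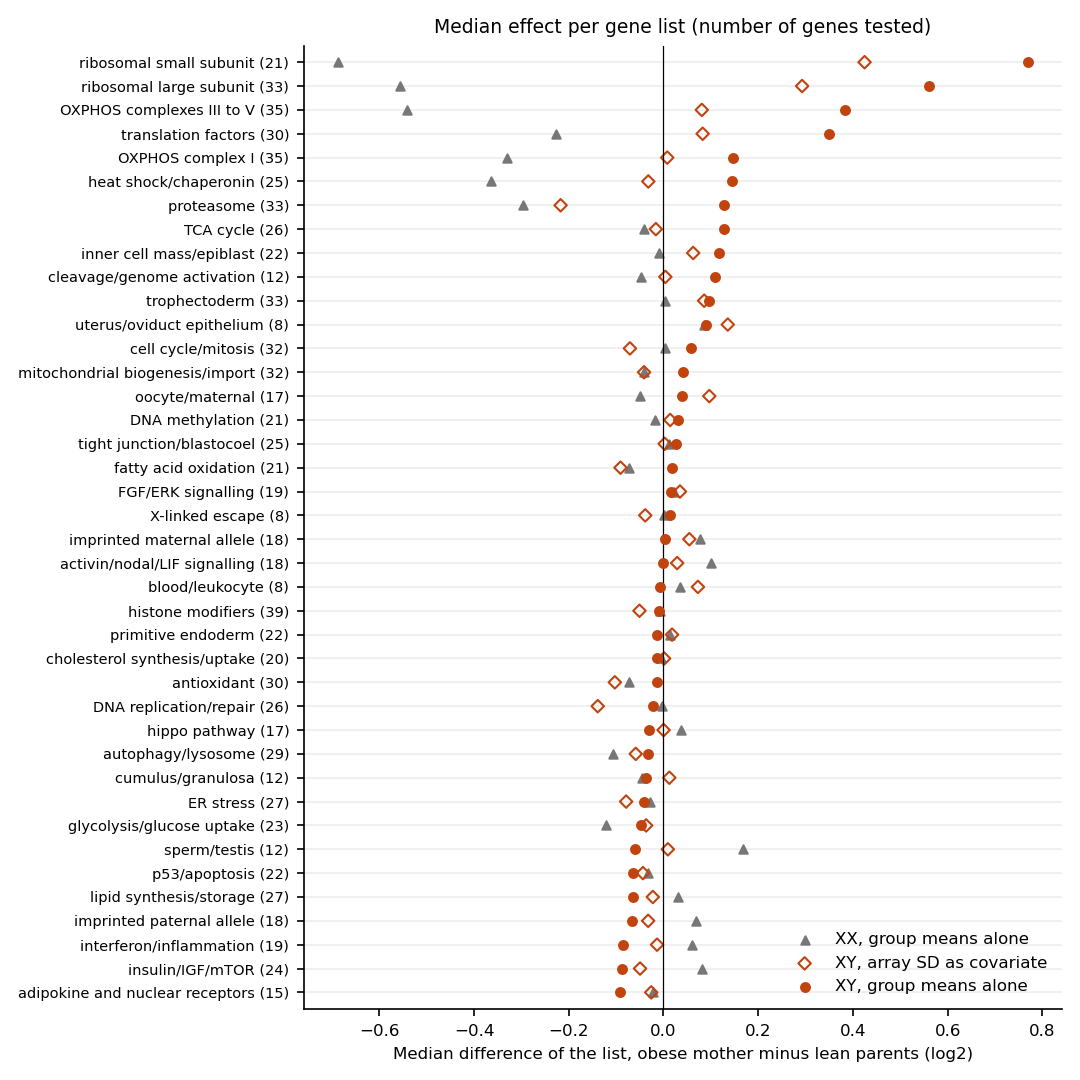
Median log2 difference between obese-mother and lean-parent embryos (x axis) of each of the 40 gene lists with at least 5 tested genes (y axis, number tested in brackets), for XY embryos from group means alone (filled circles) and with the array SD as covariate (open diamonds), and for XX embryos (grey triangles). Both ribosomal lists lie farthest right in XY and farthest left in XX, and the covariate moves the median of the small subunit from 0.77 to 0.43, while that of the proteasome goes from 0.13 to -0.22.

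Carbohydrate and lipid genes, which in adult tissues such as liver respond to diet, had medians close to 0. Glycolysis and glucose uptake had a median of -0.05 with 8 of 23 genes above 0. Ldhb, the lactate dehydrogenase subunit of oxidative tissues, was at 2.28, 1.83, 2.06 and 2.57 against 2.79, 2.62, 2.47 and 2.61, a difference of -0.44 ± 0.16 (SE; unadjusted p = 0.0131). Pfkp, a phosphofructokinase gene, differed by 0.31. In lipid synthesis and storage, with a median of -0.06 and 9 of 27 genes above 0, Fads1, the delta-5 desaturase of polyunsaturated fatty acids, was at 3.09, 2.53, 2.88 and 2.87 against 3.70, 2.89, 3.17 and 3.39. Its difference was -0.45 ± 0.16 (SE; unadjusted p = 0.0120). Srebf1, the regulator of fatty acid synthesis, differed by -0.18.

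Fatty acid oxidation had a median of 0.02, or -0.09 with the covariate. Against 1.70% and 4.92% of all genes, 0 of its 21 genes had an unadjusted p below 0.05 in either fit. Of these genes 11 were above 0. Acadm, the medium-chain acyl-CoA dehydrogenase, had the highest difference with 0.72 ± 0.68 (SE), and 0.34 with the covariate. Cpt1a, which admits fatty acids to mitochondria, differed by -0.18 and the short-chain enzyme gene Acads by -0.21. In cholesterol synthesis and uptake, with a median of -0.01, Msmo1, a sterol C4 demethylation enzyme, was at 2.79, 2.74, 3.19 and 3.29 against 2.62, 2.71, 2.59 and 2.61. Its groups did not overlap, with a difference of 0.38 ± 0.14 (SE; unadjusted p = 0.0168). Insig2, which holds the sterol sensor in the endoplasmic reticulum, differed by 0.55 ± 0.26 (SE; unadjusted p = 0.0468), with obese-mother array 6 at 3.37 and the other 7 arrays between 1.83 and 2.46.

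Signalling lists lay near 0 as well. Insulin, IGF and mTOR signalling had a median of -0.09 with 8 of 24 genes above 0. An unadjusted p below 0.05 was seen in 0 of the 24, against 1.70% of all genes. In this list Akt2, the kinase that relays insulin to glucose uptake, was higher on all 4 obese-mother arrays, at 3.06, 2.58, 2.79 and 3.01 against 2.38, 2.38, 2.32 and 2.12. The fit takes the spread from all 6 groups, and the difference of 0.56 ± 0.35 (SE) had an unadjusted p of 0.119 in limma. Irs1, an insulin receptor substrate, differed by -0.29. Adipokine and nuclear receptors had a median of -0.09.

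In the activin, Nodal and LIF list, Socs3, the feedback inhibitor of LIF signalling, differed by 0.36 ± 0.15 (SE; unadjusted p = 0.0283). Furin, a protease that matures Nodal precursors, differed by -0.35 ± 0.15 (SE; unadjusted p = 0.0328). Lats1, the Hippo kinase that restrains YAP in inner cells, differed by -0.27 ± 0.12 (SE; unadjusted p = 0.0425). The lists they belong to had medians of 0.00 and -0.03.

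Lineage lists differed little. Trophectoderm genes had a median of 0.10 with 25 of 33 above 0, and 24 of 33 with the covariate. Their mean level was 3.82, 4.29, 3.93 and 4.41 against 3.76, 4.13, 4.25 and 3.57, so the groups overlapped. Tspan8 and Psap had the highest values of those named, 1.13 and 1.0, and 0.41 and 0.59 without lean array 4. Rhox6, an X-linked homeobox gene of the placenta, differed by 0.37 and Plac1, another placental gene of the X chromosome, by -0.36.

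Inner cell mass genes had a median of 0.12 with 14 of 22 above 0, led by Pou5f1, and next to it stood Tfcp2l1 (0.28), Tbx3 (0.44) and Klf5 (0.18), which support naive pluripotency. Primitive endoderm genes had a median of -0.01, with Sox7 at -0.26, the laminin gene Lamc1 at 0.38 and the collagen chaperone gene Serpinh1 at -0.21. Tight junction and cavity genes had a median of 0.03. In that list Aqp3, a water channel, differed by 0.22, and Dsc2, a desmosome cadherin, lay lower on all 4 obese-mother arrays with -0.31 ± 0.26 (SE).

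Of the stress lists, the antioxidant and the inflammation genes held members at an unadjusted p below 0.05 without the covariate, all lower with an obese mother. Antioxidant genes had a median of -0.01 with 14 of 30 above 0. Gclm, the modifier subunit of the enzyme that starts glutathione synthesis, was at 3.85, 3.54, 3.85 and 4.04 against 3.84, 4.33, 5.38 and 3.85. The difference of -0.53 ± 0.22 (SE; unadjusted p = 0.0251) became -0.19 without lean array 3. Endoplasmic reticulum stress genes had a median of -0.04, with Ppp1r15a at -0.21 and Sel1l at 0.20. Autophagy genes had a median of -0.03, with Becn1 at 0.25. Interferon and inflammation genes had a median of -0.09, with 5 of 19 above 0 and, beside Tlr2, Irf9 at -0.21.

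In proliferation, Tyms, which makes thymidylate for DNA, was at 3.94, 4.47, 4.76 and 5.01 against 3.83, 4.26, 4.12 and 4.06, a difference of 0.48 ± 0.21 (SE; unadjusted p = 0.0340). Mcm7, a subunit of the replicative helicase, differed by -0.56 and with the covariate by -0.71. Ccnb2, a mitotic cyclin, differed by 0.63, and Tpx2, a spindle protein, by -0.50 and with the covariate by -0.69. Of 32 mitosis genes, 5 had an unadjusted p below 0.05 with the covariate, all lower, against 2.45% of all genes.

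Chromatin and parent-of-origin lists had 0 genes at an unadjusted p below 0.05 without the covariate, against 1.70% of all genes. For lists of this size a count of 0 says little. The DNA methylation list had a median of 0.03, with Dnmt3l, the cofactor of de novo methylation, at 0.29. Histone modifiers had a median of -0.01, with Hdac6 at -0.25. Imprinted genes active from the maternal allele had a median of 0.00 over 18 genes, with Htr2a at -0.30, and those active from the paternal allele -0.07 over 18 genes, with Ins2 at -0.23. Oocyte and maternal RNA genes had a median of 0.04, with Zp3 of the egg coat at -0.29 and Ooep of the subcortical maternal complex at 0.41.

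Markers of maternal cells and of sperm, which may cling to a flushed embryo, had summed levels that overlapped between the groups. Of 12 tested cumulus and granulosa genes 3 were above 0, with a median of -0.04. Summed levels are sums of log2 values over all listed genes that a probe set represents, untested dim ones included. For the 18 such cumulus and granulosa genes the sum was 51.0 to 53.6 with an obese mother and 50.2 to 54.6 with lean parents. Inha of this list differed by -0.39, and Amh lay between 3.70 and 4.45. The medians of 8 blood, 12 sperm and 8 uterus and oviduct genes were -0.01, -0.06 and 0.09. Of the 40 tested genes of these lists, 0 had an unadjusted p below 0.05, against 1.70% of all genes. Summed levels were 37.1 to 41.0 against 38.3 to 42.1 for 16 blood genes and 53.55 to 57.0 against 53.01 to 57.56 for 20 sperm genes. For 17 uterus and oviduct genes they were 41.3 to 47.2 against 42.5 to 45.4. Fshr, Ptprc, Lyz2, Ltf and Muc1, defining markers of these lists, were too dim to be tested, while the sperm marker Prm1 lay between 3.67 and 4.29. Prm2, another protamine gene of sperm, was the 1 gene of the sperm list whose groups did not overlap, with a difference of 0.27 ± 0.16 (SE). Cyp19a1, Hbb-b1 and Ovgp1 were not analysed here.

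Genes of the X chromosome, of which male embryos have the maternal copy alone, had a median of -0.03 over 366 genes, and 5 of them (1.37%) had an unadjusted p below 0.05. Autosomal genes had a median of -0.01 over 12893 genes.

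Whether the effect of an obese mother depends on the embryo's sex was tested as the difference between the XY and the XX effect. In limma 0 of 13311 genes (0%) passed, with a smallest adjusted p of 0.9999, and 0.0816 with the array SD as a covariate. At an unadjusted p below 0.05 there were 344 genes (2.58%), of which 235 had the lower effect in XY. The XX comparison itself had 0 called genes and 291 (2.19%) at an unadjusted p below 0.05, with a median difference of 0.05. Of the 226 genes of the XY comparison, 106 had the same sign in XX embryos. Whatever their sign, 10 of the 226 also had an unadjusted p below 0.05 there. Across the tested genes, which are not independent, the XY and XX effects had a correlation of -0.26, and of -0.14 with the array SD as a covariate. The array SD went the other way in females, with 1.398 ± 0.087 for obese mothers and 1.465 ± 0.075 for lean parents (SD, n = 4 each), a difference of -0.0673 (two-sided exact permutation p = 0.314).

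The gene with the smallest p of the sex difference without the covariate was Pramel19, of a family of germline and early-embryo genes. In XY embryos it was at 2.15, 1.81, 2.29 and 2.02 with an obese mother and at 2.90, 2.52, 2.46 and 2.67 with lean parents. In XX embryos it was at 2.56 ± 0.49 against 1.87 ± 0.14 (SD, n = 4 each). The effects were -0.57 and 0.69, and their difference was -1.25 ± 0.30 (SE; unadjusted p = 0.000346, and 0.000510 with the covariate). Ccdc97 had effects of 0.27 in XY and -0.63 in XX, Mrpl16, a protein of the mitochondrial ribosome, -0.36 and 0.43, and Cry2, a repressor of the circadian clock, -0.33 and 0.28. With the array SD as a covariate, Dazap2 and Ccdc97 came first, with differences between the sexes of 1.12 and 1.08 (unadjusted p = 7.71e-06 and 1.23e-05, adjusted p = 0.0816 in limma for both). Members of the Pramel family are much alike, and the signals of related genes on shared probes cannot be told apart here.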

How the data were processed

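The authors deposited 1 table of log2 values from Affymetrix arrays, made by RMA with affy (per the submitters' processing notes), a method that corrects background, normalizes across arrays and summarises the probes of a set. Tool versions, probe set definition and genome build: not given in the sources used here. Of 35556 probe sets, 21789 had 1 gene symbol in the platform annotation. The set with the highest mean over the 24 arrays stood for a gene (999 of 19938 genes had several). Names and chromosomes were checked against a RefSeq table (GRCm38.p6).

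Tests were limited to genes above the table's median on 4 or more of 24 arrays, so that 6627 genes were not tested. Group means of all 24 arrays were fitted with limma 3.58.1 (lmFit, eBayes) in R 4.3.3 at a Benjamini-Hochberg adjusted p below 0.05, without and with the array SD over all probe sets as covariate. All unadjusted p-values of single genes are from these fits. The fit without the covariate was tried on simulated data with independent noise per gene, which lack the arrays' differing spread. The sex difference was an interaction contrast, and a single value per array was compared by exact permutation.

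Members, gene lists and tests were chosen with earlier results of these data known. Named genes are, by smallest unadjusted p, 12 in each direction without and 6 with the array SD, 6 in each direction by size of difference, up to 4 of each list, Xist and Y-linked genes, and 4 for the sex difference. Defining lineage markers were a fixed list. Arrays have no read depth, and their number limits the precision. Alternatives covered filters, probe sets, scalings, priors, weights, covariates and left-out arrays.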

Additional observations from a re-analysis of the deposited data

Results flagged for a closer look

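In 10 of the 220 groups of 4 arrays checked over the named genes (4.55%), 1 array lay far from the other 3, measured by Dixon's ratio of its gap to the group's range. Chance alone flags about 1 in 20 groups. In the lean group, Snord33 was at 6.954 on array 3 (the others 3.596 to 3.906), Mier3 at 4.761 on array 3 (2.304 to 2.544), Snora52 at 6.251 on array 4 (2.225 to 2.673), Dsc2 at 2.95 on array 4 (2.669 to 2.705) and Sry at 2.389 on array 4 (2.935 to 3.043). In the obese-mother group, Rps10 was at 8.089 on array 6 (6.957 to 7.069) and Eif2s3y at 3.121 on array 6 (1.616 to 1.818). Osbpl1a was at 2.791 on array 5 (2.453 to 2.501), Xist at 2.24 on array 5 (1.861 to 1.92) and Cry2 at 3.207 on array 7 (2.8 to 2.842).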

How the results depend on the processing

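The count of 0 called genes was the same under 22 of 23 alternatives, and under all alternatives of the fit with the array SD (13) and of the sex difference (19). The exception was the first principal component of the residuals as a covariate, which gave 2 called genes, Dazap2 and Timm23. That component was computed from the same values after the group means were removed, so it takes up much of their spread. Smaller p-values were therefore built into that setting, and its 2 calls are not independent support. The number of genes at an unadjusted p below 0.05 was 226 and moved by more than 1.5 times under 7 settings. It was 655 with the array SD as a covariate, 776 with the first residual principal component and 436 without the filter on dim genes. It was 386 after quantile normalization and 343 with array weights. With the 2 widest of all 24 arrays left out it was 440, an alternative chosen after seeing the data. Those 2 were obese-father arrays, XX array 22 (array SD 1.81) and XY array 12 (1.72), and not among the 8 compared. With any 1 of the 8 arrays left out it ran from 172 to 390, the highest without lean array 3. The count of genes whose groups do not overlap was 187, and 331 without the filter. In these fits the cause of each shift was not tested. The unfiltered table also holds more genes, 19938 against 13311. The difference in array SD stayed above 0 under its 9 alternatives, between 0.0168 and 0.106. Of 106 named genes, 104 kept their sign under the 14 alternatives run for each. Many were named for a small p or a wide difference in these same arrays, so a kept sign is not independent support. Cct5 had -0.20, and from -0.52 to 0.27 with 1 array left out. Sry had 0.14, and from -0.00999 to 0.233 with 1 array left out. No paired analysis was possible because the array numbers in the titles run from 1 to 24 and no number is shared between groups. With 4 pools a group, a change smaller than a gene's 95% interval could not be told from 0. Many genes also had a low signal. A change beyond its interval could still fail the adjustment over 13311 genes. Zdhhc22 differed by 0.67 with an interval from 0.31 to 1.02, yet the smallest adjusted p of all genes was 0.9998 in limma.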
